A study of Arabidopsis thaliana with 16 samples.

Results

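Peaks of 3 WRKY transcription factors near genes of nucleotide-binding leucine-rich repeat (NBS-LRR) and TIR domain immune receptors were examined in Arabidopsis thaliana seedlings. The receptor genes were those to which the authors assigned a peak in any of the 12 deposited peak lists and whose deposited description holds "NBS-LRR", "NB-ARC", "TIR-NBS", "Toll-Interleukin" or "TIR domain". This rule found 35 of 4316 genes, with 147 of 16600 peaks. By description, 24 were TIR-NBS-LRR genes, 1 was a TIR-NBS gene (AT3G04210), 6 encoded TIR domain proteins with no other domain named, 2 were CC-NBS-LRR genes (AT1G15890 and AT1G58400) and 2 were described by their NB-ARC domain (AT1G50180 and AT1G58602). Chromosomes 1 and 5 held 15 and 14 of the genes.

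NBS-LRR proteins are intracellular receptors that detect pathogen effectors, or the changes effectors make in host proteins, and set off effector-triggered immunity. They carry a TIR or a coiled-coil (CC) domain at the N-terminus, a nucleotide-binding NB-ARC domain that acts as a switch, and leucine-rich repeats that often take part in recognition. TIR domains are enzymes that act on NAD, and their products signal through EDS1 and its partners PAD4 and SAG101 to helper receptors such as ADR1. The peptide flg22, from bacterial flagellin, is perceived at the cell surface and sets off the other branch, pattern-triggered immunity. WRKY factors bind short motifs in promoters of defence genes. WRKY18 and WRKY40 are closer relatives of each other than of WRKY33.

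DNA binding was measured by ChIP-seq with an anti-HA antibody in whole 12-day-old Col-0 seedlings. The groups were WRKY18-HA, WRKY33-HA and WRKY40-HA seedlings given 1 µM flg22 for 2 h, the same 3 lines untreated at 0 h, and untagged Col-0 WT at both times, with 2 biological replicates each. The HA lines were complementation lines per the series' design text; the sources used here do not give the promoter of the transgenes or the number of independent lines. Untreated 2 h seedlings are not among the samples, and the effects of the peptide, of time and of handling cannot be told apart. The WT libraries served as controls for peak calling, 1 for each replicate and time, shared by the 3 lines. The whole lists held 1653 to 3272 peaks at 2 h, and 9 to 1843 at 0 h, with a median of 141 to 678 tags (reads) per peak. At 0 h, the WRKY33 and WRKY40 lists held 9 to 44 peaks. A list holds called peaks only, so a gene absent from it was below the authors' threshold or left out, and was not shown to be unbound. With 2 libraries in a group, differences are given beside the spread between replicates and without a test.

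After flg22, all 3 factors had peaks near receptor genes, and before it only WRKY18 did. Of the 35 genes, WRKY18 had a 2 h peak in both replicates at 17 (48.6%), WRKY33 at 12 (34.3%) and WRKY40 at 17 (48.6%). Over all 4316 genes with a peak the shares were 31.2%, 27.6% and 35.2%. At 0 h, WRKY18 had a peak in both replicates at 4 receptor genes (11.4%), where the share of all genes was 4.94%. WRKY33 and WRKY40 had no 0 h peak at any receptor gene in either replicate. The share of all genes with a 0 h peak in at least 1 replicate was 1.16% for WRKY33 and 0.95% for WRKY40, so a count of 0 of 35 lies near the background. In single lists, the receptor share was above that of all genes in replicate 1 and near or below it in replicate 2. In replicate 1 at 2 h, WRKY18 had 20 receptor genes (57.1%, against 37.0% of all genes), WRKY33 19 (54.3% against 35.5%) and WRKY40 19 (54.3% against 41.0%). In replicate 2, WRKY18 had 22 (62.9% against 59.1%), WRKY33 17 (48.6% against 54.4%) and WRKY40 21 (60% against 64.2%). With a 2 h peak in at least 1 replicate counted, there were 25 receptor genes for WRKY18 (71.4%, against 64.9% of all genes), 24 for WRKY33 (68.6% against 62.2%) and 23 for WRKY40 (65.7% against 69.9%), all near the background. In all, 23 receptor genes (65.7%) had a 2 h peak in both replicates of at least 1 line, and 50% of all genes had one. All of these shares are over genes that have a peak somewhere in the 12 lists. Receptor genes without any peak were not counted.

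**Figure D1:**
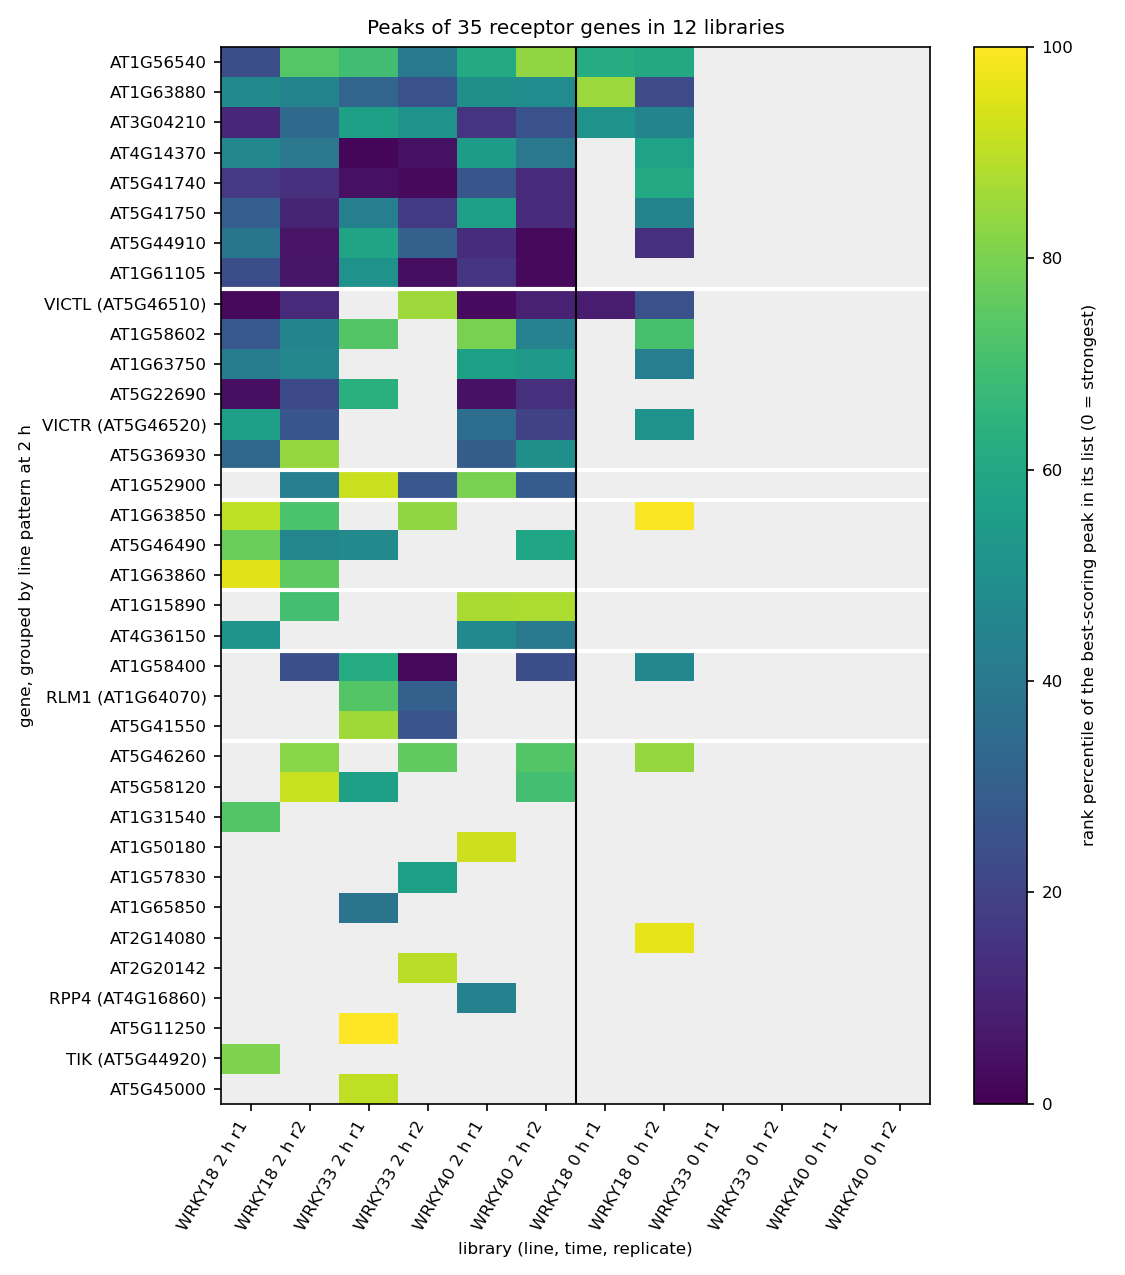
Rows are the 35 receptor genes, grouped by the lines with a 2 h peak in both replicates, and columns are the 12 libraries, with 2 h left of 0 h; colour is the rank percentile of the gene's best-scoring peak in its list (0 is the strongest) and grey means no peak in the list. The top 8 genes have a peak in all 6 of the 2 h libraries, and the 0 h columns of WRKY33 and WRKY40 are empty.

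**Figure D2:**
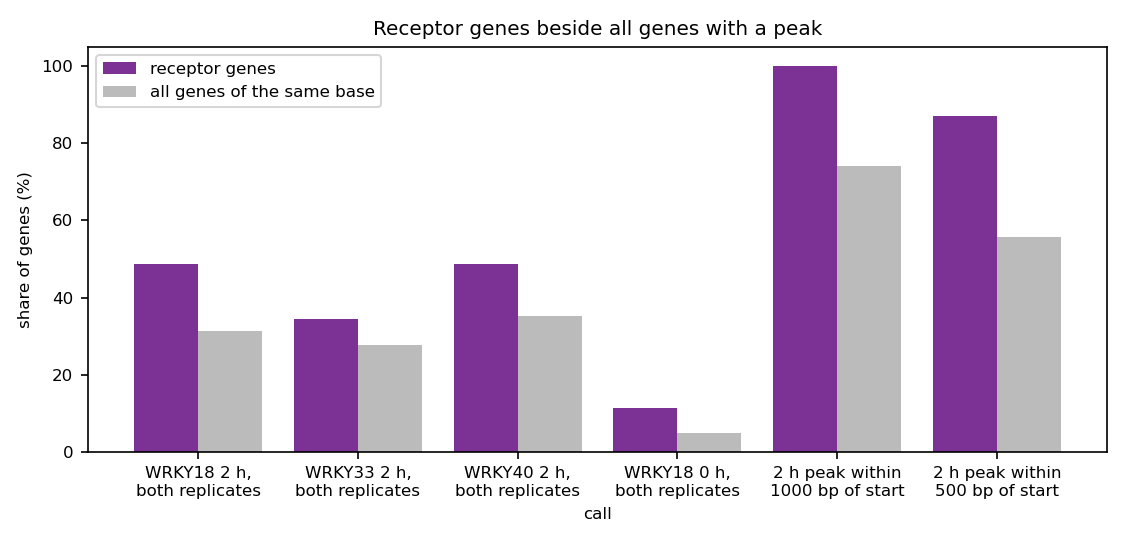
Bars give the share of receptor genes (purple) and of all genes (grey) that meet each call, in percent; the base is 35 and 4316 genes for the first 4 calls and the 23 and 2157 genes with a 2 h peak in both replicates of a line for the last 2. The receptor bar is higher in each of the 6 pairs, with 100% against 74% for a 2 h peak of any library within 1000 bp of the start.

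In strength, receptor genes lay near the middle of the bound genes, with a few among the best. Peaks were ranked by the authors' score within each list, and the percentile of that rank was averaged over both replicates, so that 0 is the strongest and 100 the weakest. Score ranges differed between lines, with highest 2 h scores of 72.3 and 97.1 for WRKY33 and 193 to 262 for the other lines. The median percentile was 41.4 for the 17 WRKY18 receptor genes, against 38.8 over all 1346 WRKY18 genes. It was 38.2 for WRKY33 receptor genes, against 37.8 over all WRKY33 genes, and 39.7 for WRKY40 in both sets. Among the best 10% lay 1 receptor gene of WRKY18 (5.88%, against 12.6% of all its genes), 2 of WRKY33 (16.7% against 11.4%) and 4 of WRKY40 (23.5% against 12.9%). The median difference between replicates was 18.7, 28.3 and 12.8 percentile points for receptor genes of WRKY18, WRKY33 and WRKY40. In WRKY33, 63.2% of the receptor genes in replicate 1 were also in replicate 2, where the share of all genes was 77.9%. The shares for replicate 1 of WRKY18 and WRKY40 were 85% and 89.5%, where those of all genes were 84.3% and 85.9%. In the other direction, 77.3%, 70.6% and 81% of the receptor genes in replicate 2 of WRKY18, WRKY33 and WRKY40 were also in replicate 1, against 52.8%, 50.9% and 54.9% of all genes.

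The 23 genes were grouped by the lines in which both 2 h replicates had a peak. Since the lines of 1 replicate share a WT control, these groups only order the description. A peak in both 2 h replicates of all 3 lines was found at 8 of the 23 (34.8%, where the share of all genes was 27.8%). They were the TIR-NBS-LRR genes AT1G56540, AT1G63880, AT4G14370, AT5G41740 and AT5G41750, the TIR-NBS gene AT3G04210, which encodes a receptor form without the leucine-rich repeats, and the TIR domain genes AT1G61105 and AT5G44910. At each, peaks of all 6 libraries formed 1 overlapping site. The positions of the peak maxima in the 6 libraries spanned 19 bp at AT1G56540, 31 bp at AT1G61105 and 34 bp at AT5G44910. The spans at the other genes were 88 to 188 bp.

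The TIR domain gene AT1G61105 had its site on chromosome 1, from 22514495 to 22515311 in build TAIR10 (1-based, as in the lists), centred at -425 to -317 bp from the gene start (negative is upstream). Its WRKY40 peaks scored 29.8 and 68.0 in replicates 1 and 2, at ranks 309 and 83, with 974 and 2319 tags where WT had 23 and 40. WRKY18 peaks scored 24.8 and 44.9 there, and WRKY33 peaks 14.0 and 35.7. In each line replicate 2 was the stronger, and the WRKY33 ranks were 836 and 94, so the lines overlapped by rank when replicates were pooled.

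AT5G44910, another TIR domain gene, had a pair of sites. The nearer one (chromosome 5, from 18136958 to 18137499) was centred at -154 to -111 bp and held the highest score of any receptor peak. WRKY40 scored 32.7 and 71.3 there, with tags 14.0-fold and 34.2-fold over WT, which are the authors' ratios. WRKY18 scored 18.6 and 45.4, and WRKY33 13.2 and 17.95. The farther site (from 18136322 to 18136893) was listed in the 4 WRKY18 and WRKY40 libraries at 2 h, at scores of 11.5 to 25.3, and in no WRKY33 library. The neighbouring TIR domain gene TIK (AT5G44920), which encodes a TIR-KASH protein, had a peak in WRKY18 replicate 1 only, with a score of 11.7.

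At 3 of the 8 genes both WRKY33 percentiles were better than all 4 of WRKY18 and WRKY40. These were AT4G14370, AT5G41740 and AT1G63880. Of all 600 genes with peaks in all 3 lines, 20.7% showed this order. AT4G14370 (chromosome 4, from 8283372 to 8283991, centred at -429 to -308 bp) was the strongest WRKY33 receptor gene, with scores of 39.1 and 33.5 at ranks 30 and 115. In the other lines its ranks were 836 and 1186 (WRKY18, scores 16.7 and 18.1) and 1104 and 1302 (WRKY40, scores 15.2 and 19.8). AT5G41740 (chromosome 5, from 16687876 to 16688774) ranked 77 and 64 in WRKY33, with scores of 29.7 and 39.7. Its WRKY18 ranks were 299 and 398 (scores 29.8 and 32.1) and its WRKY40 ranks 538 and 390 (scores 22.8 and 39.2). By score the lines overlapped at AT5G41740, and so they did by the authors' tag ratio over WT, where WRKY33 had 14.7 and 13.0, WRKY18 had 13.7 and 12.0, and WRKY40 had 12.1 and 14.1. At AT1G63880 (chromosome 1, from 23715937 to 23716523) the lines lay closer, with percentiles of 32.7 and 25.2 for WRKY33 and 44.8 to 49.9 for the other lines. The deposited annotation of every peak of AT1G63880 names the promoter of another gene, AT1G63900. All 3 genes kept this order within each replicate, as 29.2% of all 600 genes did. By the tag ratio only AT4G14370 did, with 13.7 and 17.8 for WRKY33, and 7.33% of all genes did.

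AT3G04210 showed the opposite order, with both WRKY33 percentiles worse than the other 4, which 27.2% of all such genes did. Its site (chromosome 3, from 1107781 to 1108987) scored 36.2 and 19.6 with WRKY18, 29.9 and 26.3 with WRKY40, and 13.3 and 14.2 with WRKY33. At AT5G41750, AT1G56540, AT1G61105 and AT5G44910 the WRKY33 percentiles overlapped those of the other lines when replicates were pooled. Within replicates, AT5G44910 was weaker with WRKY33 in each. In replicate 1 its percentile was 58.4 for WRKY33, 39.0 for WRKY18 and 12.6 for WRKY40, and in replicate 2 it was 30.8 for WRKY33, 5.28 for WRKY18 and 2.17 for WRKY40. AT3G04210 was also weaker in each, as were 37% of all 600 genes, and the order of the other 3 genes differed between replicates. By the tag ratio, WRKY33 was below the other 4 libraries at AT3G04210, AT5G44910 and AT1G61105, as at 41.7% of all genes. AT5G41750 (chromosome 5, from 16693016 to 16694101) scored 15.1 and 22.7 with WRKY33, 21.8 and 35.1 with WRKY18, and 14.9 and 38.3 with WRKY40. AT1G56540 (chromosome 1, from 21181471 to 21181686) had narrow, weaker peaks centred at -86 to -69 bp. These scored 12.2 and 15.9 with WRKY33, 24.8 and 12.4 with WRKY18, and 14.1 and 11.8 with WRKY40.

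**Figure D3:**
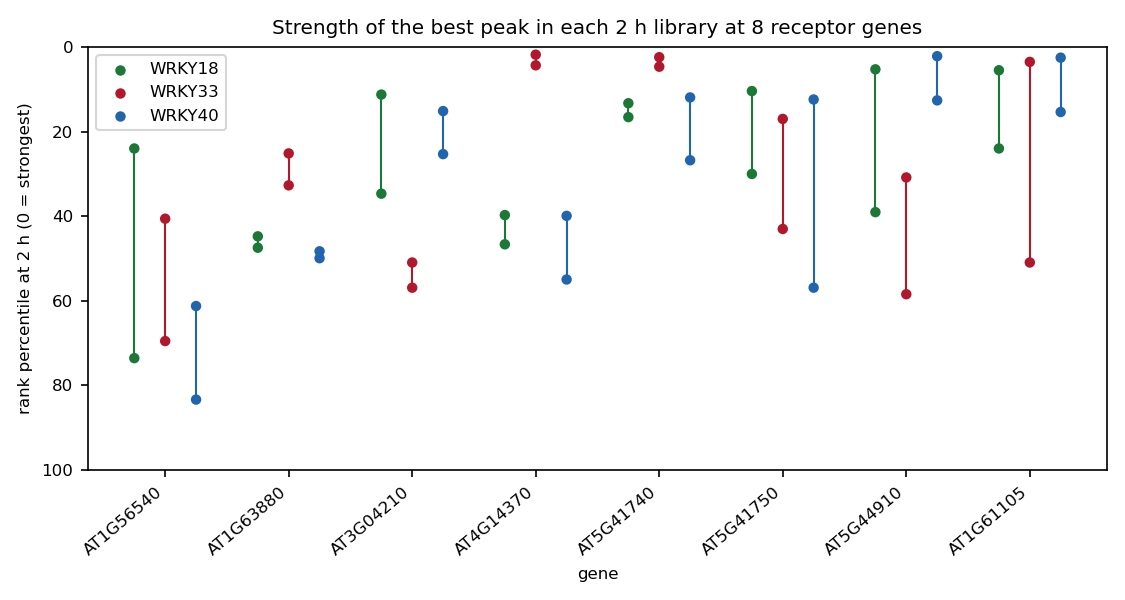
Points give the rank percentile of the best-scoring 2 h peak in each replicate at the 8 receptor genes found in all 3 lines, with 0 at the top; a line joins the 2 replicates. WRKY33 lies above the other lines at AT1G63880, AT4G14370 and AT5G41740 and below them at AT3G04210.

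A further 6 receptor genes (26.1% of the 23, where the share of all genes was 25.8%) had a 2 h peak in both replicates of WRKY18 and WRKY40 but not of WRKY33. They were VICTL (AT5G46510), VICTR (AT5G46520), AT5G22690, AT5G36930, AT1G63750 and AT1G58602. VICTR is a TIR-NBS-LRR receptor named for its part in a root growth response to a small compound, and VICTL is named for its likeness to VICTR. At no receptor gene did WRKY18 and WRKY33 alone share such peaks (2.32% of all).

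VICTL held the strongest WRKY18 receptor site, on chromosome 5 from 18859808 to 18860658, centred at -381 to -218 bp. It scored 66.4 and 33.1 with WRKY18 (ranks 41 and 364) and 56.9 and 44.8 with WRKY40 (ranks 59 and 297). WRKY33 had a peak there in replicate 2 only, with a score of 10.8 at rank 2265. Tags numbered 1894 and 1121 in WRKY18, with 41 and 16 in WT, and 110 in the WRKY33 library, with 11 in WT. The median over all peaks was 624 and 678 tags in these WRKY18 lists and 222 in that WRKY33 list. The VICTR site (from 18866872 to 18867635) was weaker, with scores of 14.8 and 22.8 for WRKY18 and 19.5 and 30.6 for WRKY40, and was in no WRKY33 list.

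AT5G22690 was next in strength of the 6 (chromosome 5, from 7540975 to 7541581). WRKY18 scored 53.2 and 24.8 and WRKY40 48.0 and 36.3, while WRKY33 had a peak in replicate 1 only, with a score of 12.8. The deposited annotation of these peaks names the promoter of another gene, AT5G22680, so the receptor is only the gene whose start lies nearest. AT1G58602, described by leucine-rich repeats and an NB-ARC domain, scored 23.1 and 16.7 with WRKY18 and 11.7 and 18.4 with WRKY40, with a peak of WRKY33 in replicate 1 (11.8). AT1G63750 scored 17.9 and 16.5 with WRKY18 and 14.9 and 16.2 with WRKY40, and had no WRKY33 peak. AT5G36930 scored 20.2 and 11.3 with WRKY18 and 21.9 and 17.1 with WRKY40. It had a single WRKY40 peak in each replicate, and these did not overlap, with centres at -273 and -8 bp. With overlapping peaks in both replicates required, WRKY40 had 16 receptor genes in place of 17. The share of all genes at this setting was not computed.

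WRKY33 alone had a peak in both 2 h replicates at 3 receptor genes (13% of the 23, where the share of all genes was 20.8%). RLM1 (AT1G64070), a TIR-NBS-LRR gene of resistance to the fungus Leptosphaeria maculans, had a WRKY33 site on chromosome 1 from 23779405 to 23779695, with scores of 11.9 and 17.95. AT5G41550 scored 10.9 and 19.1 on chromosome 5 from 16621077 to 16621345. Neither gene was in a list of another line. The peaks at both held 109 to 179 tags, where the medians of the 2 WRKY33 lists were 282 and 222. The percentiles of RLM1 and AT5G41550 were 73.1 and 85.6 in replicate 1, and 30.8 and 26.3 in replicate 2. The peaks of both genes were centred at -426 to -399 bp. The third gene was AT1G58400, a CC-NBS-LRR gene, whose WRKY33 peaks were centred at -2081 and -2051 bp, where the deposited annotation names the transcript end of AT1G58410. They scored 12.9 and 41.9, at ranks 1019 and 54, a wide gap between replicates. WRKY18 also had a peak there in replicate 2 (13.2). A nearer site, centred at -755 and -733 bp, was listed for WRKY18 (23.9) and WRKY40 (26.9) in replicate 2 at 2 h, and not for WRKY33.

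WRKY18 alone had peaks in both 2 h replicates at AT1G63850, AT1G63860 and AT5G46490 (13%, where the share of all genes was 6.44%), and WRKY40 alone at AT1G15890 and AT4G36150 (8.7%, where it was 12.4%). Their scores in these lines ran from 10.4 to 19.7. The mean percentile of the best-scoring peaks was 44.1 at AT4G36150, where they came from different sites, and 61.7 to 87.5 at the others. AT1G15890 scored 11.1 and 11.3 with WRKY40 and 12.8 in WRKY18 replicate 2. AT5G46490 scored 12.0 and 16.5 with WRKY18, and it also had a single WRKY33 peak (14.4) and a single WRKY40 peak (15.3). The WRKY18 peaks of AT1G63850 were centred at -2919 and -2866 bp at 2 h, and the WRKY33 peak of that gene, in replicate 2, at -835 bp. At AT4G36150 the site found in both WRKY40 replicates was centred at 4399 and 4436 bp, at its transcript end per the deposited annotation. At this site the percentiles were 96.0 and 40.3 in replicates 1 and 2 (scores 10.4 and 19.7). A promoter peak of AT4G36150, centred at -85 and -66 bp, was in replicate 1 of WRKY18 and WRKY40. It was the better-scoring WRKY40 peak of replicate 1, at a percentile of 47.9. The remaining gene (4.35%, where the share of all genes was 4.4%) was AT1G52900, a TIR domain gene. It had peaks in both replicates of WRKY33 (10.5 and 18.9) and WRKY40 (11.7 and 24.2) and in WRKY18 replicate 2 (17.2).

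Before flg22, WRKY18 peaks at receptor genes were few in replicate 1 and many in replicate 2. VICTL, AT1G56540, AT1G63880 and AT3G04210 had one in both (4 of the 17 WRKY18 genes, 23.5%, where the share of all was 14.2%). At least 1 replicate had one at 15 of the 35 (42.9%, against 39.3% of all genes). The lists held 4 receptor genes in replicate 1 and 15 in replicate 2, and the 2 lists differ as widely over all genes, with 254 and 1656. Of the 17 genes with a WRKY18 peak in both 2 h replicates, 12 (70.6%) had a 0 h peak in at least 1 replicate, where the share of all such genes was 66%. A 0 h peak in replicate 1 was found at 4 of the 17 (23.5%, where the share of all was 16%) and in replicate 2 at 12 (70.6%, where it was 64.1%), so the count of 12 rests on 0 h replicate 2.

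At VICTL, WRKY18 scored 66.4 and 33.1 at 2 h, and 27.4 and 20.6 at 0 h. The 0 h peak of replicate 1 was at rank 20 of 260. Tags there were 16.5-fold and 15.0-fold over WT at 2 h, and 14.4-fold and 10.9-fold at 0 h. AT3G04210 scored 36.2 and 19.6 at 2 h, and 14.0 and 15.8 at 0 h. Both genes were higher at 2 h in both replicates. AT1G56540 scored 24.8 and 12.4 at 2 h, and 13.2 and 13.6 at 0 h. AT1G63880 scored 16.5 and 16.7 at 2 h, and 11.1 and 21.5 at 0 h. At these last 2 genes the times overlapped. In replicate 2, AT5G44910 scored 45.4 at 2 h and 27.0 at 0 h, AT5G41740 32.1 at 2 h and 13.5 at 0 h, and AT5G41750 35.1 at 2 h and 15.9 at 0 h. AT1G61105 and AT5G22690, among the strongest at 2 h, had no 0 h peak.

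Among genes with a WRKY18 peak at both times, the authors' tag ratio over WT was higher at 2 h for 4 of 4 receptor genes in replicate 1 and 12 of 14 in replicate 2. Of all such genes, 88.9% and 77.7% were higher at 2 h. The median ratio of 2 h to 0 h was 1.52 and 1.31 for the receptor genes, against 1.71 and 1.27 over all. The ratios at AT1G63850 (0.994) and AT1G63880 (0.817) in replicate 2 were the 2 below 1. The 0 h and 2 h libraries were set against different WT controls. At AT5G41750 the ratio was 3.69, and WT had 54 tags at the 0 h site and 30 at the 2 h site.

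Peaks of receptor genes lay closer to the gene start than peaks in general. At 2 h, 118 of 127 receptor peaks (92.9%) were centred within 1000 bp of the start, against 59.7% of 14393 peaks. Within 500 bp were 79.5% of receptor peaks, against 40.1% of all. Within 2000 bp the shares were 94.5% and 82.4%. The median position was -292 bp for receptor peaks, against -340 bp for all peaks. The quartiles were -425.5 and -141 bp for receptor peaks, against -980 and -36 bp for all. Downstream of a start were 6 receptor peaks (4.72%), against 23.7% of all peaks. Peaks of 1 site in several libraries are not independent, so the genes were also counted. Of the 23 receptor genes with a 2 h peak in both replicates of a line, 23 (100%) had a 2 h peak within 1000 bp, against 74% of 2157 genes, and 20 (87%) had one within 500 bp, against 55.8%. Here a 2 h peak of any library counted, for receptor genes and all genes alike. At AT1G63850, AT1G58400 and AT4G36150 the near peaks were in 1 replicate only. The sites of these genes found in both replicates of a line lay beyond 1000 bp. Of the 20 receptor peaks at 0 h, all of WRKY18, 18 (90%) lay within 1000 bp, against 58.2% of all 0 h peaks. Median peak width was 493 bp for receptor genes and 536 bp for all peaks at 2 h.

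**Figure D4:**
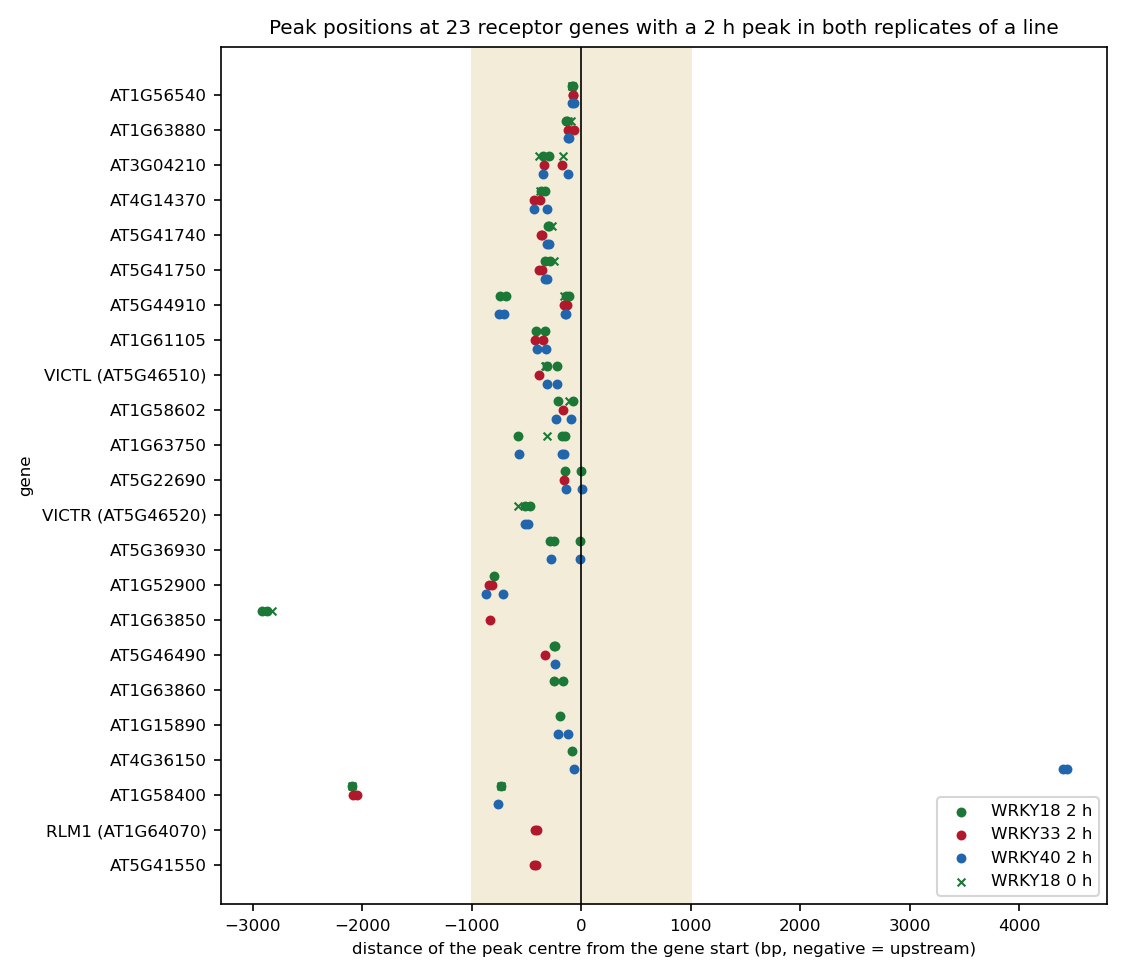
Each point is a peak of 1 library, placed by the distance of its centre from the gene start in bp (negative is upstream), at the 23 receptor genes with a 2 h peak in both replicates of a line; dots are 2 h, crosses WRKY18 at 0 h, and the band marks 1000 bp either side. Most sites lie upstream within the band, and AT1G58400, AT1G63850 and AT4G36150 have sites outside it.

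The authors assigned a peak to the gene with the nearest start. For 16 of the 127 receptor peaks at 2 h (12.6%, against 12.8% of all peaks) the deposited annotation names another gene. This held for every peak of AT1G63880, where it names the promoter of DAL1 (AT1G63900), and of AT5G22690, AT1G65850 and AT1G31540, and for the farther site of AT1G58400. Without such peaks, 15, 10 and 15 receptor genes had a 2 h peak in both replicates of WRKY18, WRKY33 and WRKY40, and 7 were found in all 3 lines. The shares of all genes without such peaks were not computed, so these counts have no background beside them.

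Receptor genes often lie in clusters of related copies, and 10 of the 35 had another of the 35 within 10 genes along the chromosome, in the gene order of RefSeq assembly TAIR10.1. They formed 4 groups. AT5G41740 and AT5G41750 had sites at like distances (-367 to -266 bp and -387 to -245 bp) and peaks in the same 7 libraries. In the group of AT5G46490, VICTL and VICTR, scores at 2 h ran from 12.0 to 16.5 for WRKY18 at AT5G46490 and from 33.1 to 66.4 at VICTL. In the group of AT1G63850, AT1G63860 and AT1G63880, the last had peaks in 8 libraries, and the others in 4 and 2. TIK and AT5G44910 formed the last group. The sources used here do not say how reads that match several copies were treated, so values of close copies are uncertain.

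The other 12 receptor genes had no 2 h peak in both replicates of any line. They include RPP4 (AT4G16860), a TIR-NBS-LRR gene of resistance to downy mildew, with a peak in WRKY40 replicate 1 (score 17.3). AT5G11250 had a WRKY33 peak in replicate 1 at a score of 10.01, near the lowest score of the lists, and AT1G50180 a WRKY40 peak in replicate 1 at 10.6. AT5G46260 and AT5G58120 were each in 1 of the 2 replicates in all 3 lines. AT2G14080 was listed only at 0 h, in WRKY18 replicate 2 (10.3). AT1G31540, AT1G57830, AT1G65850, AT2G20142, TIK and AT5G45000 each had 1 peak, with scores of 10.6 to 15.8.

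Some known receptor genes had peaks but descriptions outside the rule. SNC1, a TIR-NBS-LRR receptor known for autoimmunity when overactive, had a 2 h peak in both replicates of all 3 lines, with scores of 17.4 and 20.9 for WRKY18, 14.7 and 17.1 for WRKY33, and 13.4 and 26.3 for WRKY40. The helper receptor gene ADR1 had one in both replicates of WRKY18 (17.5 and 24.7) and WRKY40 (18.8 and 26.7). Of a hand-written list of 43 receptor genes known from the field, 13 had a peak in any list. Of the 13, 7 are among the 35 receptor genes of the rule. A 2 h peak in both replicates of WRKY18, WRKY33 and WRKY40 was found at 5, 3 and 5 of the 13. These are 38.5%, 23.1% and 38.5% of the 13, near the 31.2%, 27.6% and 35.2% of all genes with a peak.

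Among 24 partner genes of the receptors, also from a hand-written list, 11 had a peak in any list. Of these, 4, 5 and 6 had a 2 h peak in both replicates of WRKY18, WRKY33 and WRKY40 (36.4%, 45.5% and 54.5%, against 31.2%, 27.6% and 35.2% of all genes with a peak). EDS1, the hub of TIR receptor signalling, scored 30.9 and 22.2 with WRKY18 and 25.9 and 24.1 with WRKY40 and had no WRKY33 peak. SAG101, its partner, was in both 2 h replicates of WRKY33 (15.4 and 26.9). It was also in replicate 2 of WRKY18 (13.2) and WRKY40 (15.8) at 2 h, and of WRKY18 at 0 h (11.2). RIN4, a protein guarded by receptors, was in both replicates of WRKY18 and WRKY40, and in WRKY33 replicate 2 (10.2). ZED1, a pseudokinase that works with a CC-NBS-LRR receptor, was in those of WRKY33 alone (15.8 and 24.97). HR4, related to the resistance protein RPW8, was in both of all 3 lines, and SGT1A, a co-chaperone of receptors, in those of WRKY33 and WRKY40. SGT1A was also in WRKY18 replicate 2 at 2 h (15.1). PAD4 had a single peak, in WRKY18 at 0 h (11.5). The other partner genes with a peak were PBL2 (AT1G14370), BAP1, HR3 and HR1. PBL2 scored 27.3 and 56.0 with WRKY40 at 2 h, with 55.3 in WRKY18 replicate 2 and 13.1 in WRKY33 replicate 2. BAP1 scored 19.1 and 40.8 with WRKY33, with 10.7 and 13.0 in replicate 2 of WRKY18 and WRKY40. HR3 was in both 2 h replicates of WRKY18 and WRKY40, and in WRKY18 replicate 2 at 0 h. HR1 was in WRKY33 replicate 2 only (10.5).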

How the data were processed

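The 12 HA libraries each have 1 deposited peak list. FastQC 0.11.2, cutadapt 1.2.1, Bowtie 0.12.7, HOMER and build TAIR10 come from the submitters' processing notes; the sources used here do not state how peaks were called or at which threshold. The deposited score per peak has no stated scale. Tag counts per peak in the HA library and WT, and the fold (a ratio) of tags over WT, are the authors', per the file headers. That ratio was smaller than tags divided by WT tags at all receptor peaks with WT tags (by 1.13 to 21.5 times), so its formula is not known. Distances run from the peak midpoint: at 22 of 22 receptor genes with at least 3 peaks they led back to 1 start within 2 bp.

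Every peak was kept. A gene counted in both replicates when each list assigned it a peak. For each gene and list the best-scoring peak was used. Genes named with values are those with a 2 h peak in both replicates of all 3 lines, the 5 best of each line, those with a 0 h peak in both replicates, and those on the hand-written list of known receptors. Others were named after their values were seen, to account for every member. The members and lists were chosen with earlier results of these data known. Some symbols came from a RefSeq table (assembly TAIR10.1), which held all 35 genes. Python 3.11.15, numpy 2.4.6, pandas 2.3.3 and matplotlib 3.10.9 were used, and the overlap code was tested on simulated data. No sequence was used here. Depth limits which peaks pass the authors' threshold; receptor peaks held 109 to 2319 tags.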

Additional observations from a re-analysis of the deposited data

How the results depend on the processing

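Of 48 alternatives run, 34 left a count within 1.5 times its value. Limiting each list to its better-scoring 50% left 11, 4 and 10 receptor genes with a 2 h peak in both replicates of WRKY18, WRKY33 and WRKY40, and 1 for WRKY18 at 0 h. The shares of all genes at this setting were not computed, so these counts are not a result about receptor genes. The hand-written receptor list gave 5, 3 and 5 at 2 h and 1 at 0 h. Of its 43 genes only 13 had a peak in any list, and 7 of the 13 are also receptor genes of the rule. Its counts are thus over a smaller set that partly overlaps the main one. Single lists gave 20 to 22, 17 to 19 and 19 to 21 genes at 2 h, 4 to 15 for WRKY18 at 0 h, and 10 to 12 found in all 3 lines. The share of all genes found in all 3 lines was not computed for single lists. Without 0 h replicate 2, the receptor genes with both a 2 h and a 0 h WRKY18 peak numbered 4, and without replicate 1 they numbered 12. WRKY33 was stronger than the other lines at 1 gene and weaker at 3 by the tag ratio over WT, and weaker at 2 within replicates. These comparisons, and dropping peaks annotated to another gene, were added after seeing the data. Motif windows were not run, since no sequence was used here. No paired analysis was possible because no result comes from a test or fit that could hold a replicate block; the 2 h and 0 h values of WRKY18, and the lines at 2 h, were set side by side within replicates instead.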
